A study of Homo sapiens with 6 samples.

Results

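The EGFR family and its ligands were taken by gene symbol from the table of 58735 genes, as a set of 10 genes: the receptors EGFR, ERBB2 and ERBB3, and the ligands AREG, EREG, HBEGF, TGFA, BTC, EPGN and NRG1. The rule itself uses gene symbols and no measured value, though the set was drawn up with earlier results of these data known. Of the 10 genes, 7 passed the filter on low counts and were tested among 17574 genes in all, and BTC, EPGN and NRG1 did not. After CNOT7 knockdown TGFA was called higher, EGFR and HBEGF were called lower, and no difference passed the test for ERBB2, ERBB3, AREG and EREG. These calls depended on single libraries. Leaving out 1 library at a time lost the call of TGFA in 2 of 6 fits, of EGFR in 3 and of HBEGF in 4. The HBEGF groups also overlapped.

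The study asked what CNOT7, a deadenylase subunit of the CCR4-NOT complex that shortens poly(A) tails of mRNA, does in the response of colorectal cancer to radiation. RNA was sequenced from 3 libraries with the genotype CNOT7 knockdown and 3 libraries of the CNOT7 control, all from SW480, a line of human colorectal cancer cells, and none was treated. The paper describes stable lines made with lentiviral shRNA vectors that also carry copGFP and a puromycin resistance gene, and it names HCT116 for this experiment, whereas the labels name SW480. Which shRNA each library carries is not stated. Nor is it stated whether the 3 libraries of a group came from separate cultures, so p-values measure only the spread between these libraries, which may be technical.

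The ErbB receptors are tyrosine kinases that pair on binding a ligand and signal through RAS-ERK and PI3K-AKT. TGFA, AREG, EPGN and EGF bind EGFR, whereas HBEGF, BTC and EREG bind both EGFR and ERBB4. Of the neuregulins, NRG1 and NRG2 bind ERBB3 and ERBB4, and NRG3 and NRG4 bind ERBB4. ERBB2 has no known ligand and acts as a partner, and ERBB3 has little kinase activity of its own. The ligands are made as membrane proteins and are released by proteases of the ADAM family. In colorectal cancer EGFR is the target of therapeutic antibodies, and AREG and EREG levels have been studied as markers of the response to them.

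The library totals ranged from 23788451 to 25982493 counts in control and from 27523812 to 29104872 counts in knockdown. CNOT7 (ENSG00000198791) was measured at 169, 191 and 176 CPM (counts scaled to a common library size with TMM factors) in control replicates 1, 2 and 3 and at 43.4, 47.2 and 38.6 CPM in the knockdown replicates. It was lower in all libraries labelled as knockdown than in the control libraries. Its log2 fold change was -2.05 (SE 0.0734, adjusted p = 2.64e-12, edgeR). The epithelial genes EPCAM, KRT8, KRT18 and KRT19 were high, at 303 to 2261 TPM on average in control (counts per exonic length, scaled to the same sum in each library), whereas KRT20, CEACAM5 and LGR5 had mean levels of 0 to 0.103 TPM in both groups. The 10 epithelial markers summed to 4988 to 5367 TPM in control and 4678 to 5325 TPM in knockdown, mostly from the keratins. Of the 7 epithelial markers tested, VIL1 (log2 fold change 0.72) and CDH1 (0.51) were called higher, KRT8 (-0.15) and KRT19 (-0.18) lower, and EPCAM, KRT18 and CDX2 were not called, and their part in the results was not tested. Other cell types were near 0 in the sum of their markers: 6 fibroblast genes gave 3.53 to 4.11 and 4.05 to 4.89 TPM, with COL3A1 and DCN at 0 in all libraries, 6 immune genes gave 4.71 to 7.37 and 7.64 to 9.41 TPM, and 4 endothelial genes gave 0.637 to 0.877 and 1.10 to 1.34 TPM. The marker sums of these last 3 types moved upward with knockdown, and their part in the results was not tested. Mitochondrial rRNA took 0.990 to 1.05% of counts in control and 1.44 to 1.58% in knockdown, and its part in the results was not tested either.

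Several ligand mRNAs of the family carry AU-rich elements in the 3′ UTR, sequences that proteins of the ZFP36 family bind and through which the CCR4-NOT deadenylases can be recruited to an mRNA. The heptamer TATTTAT, which contains the pentamer ATTTA, was therefore searched in the 3′ UTR of 1 GENCODE release 29 coding transcript per gene, that with the longest complete 3′ UTR, on the transcript strand only, counting overlapping matches. It was found in AREG, EREG, HBEGF, TGFA and NRG1. The windows below show 1 heptamer with its flanks for each of the tested ligands, because these 4 genes hold the motif and their fitted log2 fold changes differ in sign. Capitals mark the heptamer, and the sequences are written 5′ to 3′ as DNA of the transcript strand.
AREG: aatggaagtgTATTTATtttacagctc
EREG: ttattaataaTATTTATgttgggtcaa
HBEGF: ttaaattataTATTTATtttattctat
TGFA: gatgatgtctTATTTATtagatggata
On GRCh38 the AREG window is chr4:74454959-74454985 on the plus strand and the EREG window is chr4:74384872-74384898 on the plus strand. The HBEGF window is chr5:140333679-140333705 and the TGFA window is chr2:70450234-70450260, both on the minus strand.

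The motif content differed widely within the family. EREG held 4 heptamers and 20 pentamers in a 3′ UTR of 3943 bases, where 63.3% of the tested genes with a 3′ UTR of similar length (within 20%) held a heptamer and 96.0% had fewer pentamers. AREG, with a 3′ UTR of 269 bases, held 1 heptamer and 4 pentamers, and of genes with similar lengths 10.1% held a heptamer and 99.2% had fewer pentamers. HBEGF held 2 heptamers in 1456 bases, where 32.6% of similar UTRs held one, and TGFA held 2 in 3579 bases, where the share was 59.6%. Thus the short AREG UTR was dense in the motif. At the length of the TGFA UTR most similar UTRs held a heptamer, and at that of HBEGF a minority did. NRG1 held 1 heptamer in 3557 bases. No heptamer was found in the UTRs of EGFR (6011 bases), ERBB2 (618 bases), ERBB3 (1450 bases), BTC (1918 bases) or EPGN (670 bases), which says only that these letters are not there. BTC did hold 12 pentamers, and 97.1% of tested genes with similar lengths had fewer. That share was 81.1% for TGFA, 76.7% for NRG1, 75.7% for HBEGF, 37.3% for ERBB3 and 30.1% for EGFR. ERBB2 and EPGN held 0 pentamers.

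The log2 fold changes of the 4 tested ligands with a heptamer were 0.21 in TGFA and -0.44 in HBEGF, which passed the test, and 0.58 in AREG and -0.36 in EREG, which did not. Over all tested genes with an annotated 3′ UTR (13571 genes), 34.1% held the heptamer. Of the 4628 genes with it, 15.1% were called higher and 15.4% lower, with a median log2 fold change of -0.00846. Of the 8943 genes without it, 14.5% were called higher and 13.9% lower, with a median of -0.00804. A match of the motif is a description of the letters and not a binding site.

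Levels of different genes were compared per length, as TPM. EGFR was the highest of the 10 genes in control at 131 ± 3.85 TPM (SD, n = 3), and TGFA was next at 93.7 ± 3.07 TPM. The receptors ERBB3 and ERBB2 followed at 29.6 ± 0.510 and 25.5 ± 1.95 TPM. HBEGF was measured at 7.36 ± 1.07 TPM and AREG at 1.97 ± 0.00840 TPM, whereas EREG, BTC, NRG1 and EPGN were below 1 TPM. SW480 cells therefore held much TGFA mRNA and little of the other ligands of EGFR. In knockdown the order was the same, with EGFR at 120 ± 3.35 TPM, TGFA at 112 ± 1.01 TPM, ERBB3 at 32.7 ± 2.89 TPM, ERBB2 at 29.1 ± 2.77 TPM, HBEGF at 5.59 ± 0.895 TPM and AREG at 3.05 ± 0.496 TPM. The library values of EREG and BTC overlapped in both groups, as did those of NRG1 and EPGN, and ERBB3 and ERBB2 overlapped in knockdown, so these neighbours in the order did not differ beyond their spread. With the length of the longest coding transcript in place of all exonic bases, an alternative chosen after seeing the data, ERBB2 came before ERBB3 in both groups (38.9 against 32.0 TPM in control and 44.5 against 35.5 TPM in knockdown).

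**Figure D1:**
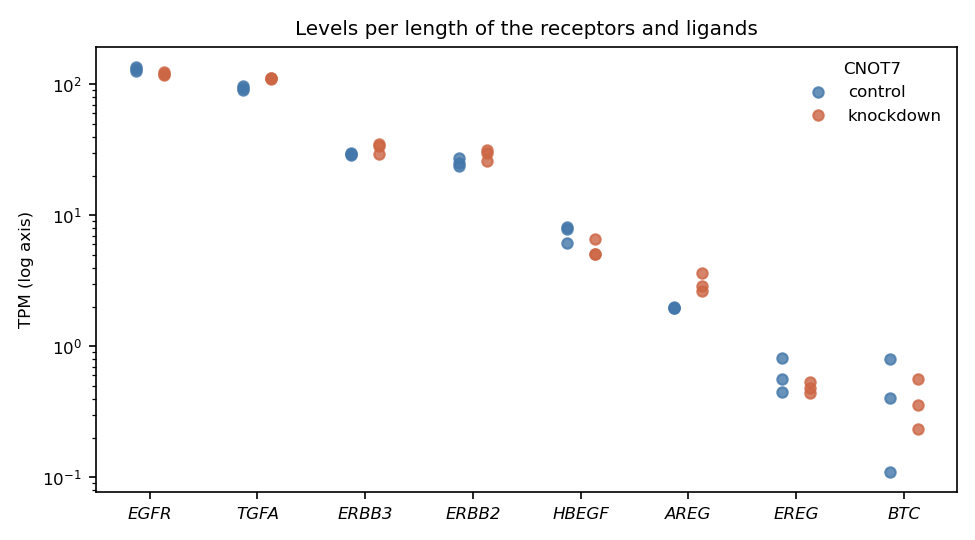
Level in TPM on a log axis of the 8 genes with counts in all libraries, with 1 point per library for 3 control and 3 CNOT7 knockdown libraries. EGFR and TGFA lie highest, at means of 131 and 93.7 TPM in control and 120 and 112 TPM in knockdown, and EREG and BTC lie below 1 TPM.

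EGFR (ENSG00000146648, chr7:55019021-55211628, plus strand) was measured at 449, 471 and 449 CPM in control replicates 1, 2 and 3 and at 416, 409 and 392 CPM in the knockdown replicates. All knockdown values lay below all control values. The mean fell by 11% in the fit, from 456 ± 13 to 406 ± 12.3 CPM (log2 fold change -0.17, SE 0.0494, 95% interval -0.27 to -0.06, adjusted p = 0.0187). Here and in what follows adjusted p-values come from edgeR's quasi-likelihood test, after the Benjamini-Hochberg method over all tested genes. In bulk RNA fewer cells of a type and less RNA per cell cannot be told apart. The call of EGFR was lost without control replicate 2 (adjusted p = 0.0589), control replicate 3 (0.0553) or knockdown replicate 3 (0.0670). It was also lost once a trend of the differences with abundance was removed by cyclic loess (log2 fold change -0.10, adjusted p = 0.136), and the adjusted p ranged from 1.05e-04 to 0.136 over 12 alternatives. Of the exonic bases of EGFR, 1.49% are shared with EGFR-AS1 on the opposite strand, whose reads cannot be told apart without strand.

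ERBB2 (ENSG00000141736, chr17:39687914-39730426, plus strand), the partner receptor, was measured at 78.7, 68.6 and 72.3 CPM in control and at 82.8, 73.7 and 86.4 CPM in knockdown. The groups overlapped, since knockdown replicate 2 lay below control replicate 1. The log2 fold change was 0.15 (SE 0.0707, 95% interval -0.00382 to 0.29, adjusted p = 0.149), which did not pass the test. Without knockdown replicate 2 ERBB2 was called higher (log2 fold change 0.21, adjusted p = 0.0238), and the adjusted p ranged from 0.0109 to 0.443 over 12 alternatives. Of its exonic bases 7.41% are shared with MIEN1 and PGAP3 on the opposite strand.

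ERBB3 (ENSG00000065361, chr12:56076799-56103505, plus strand), the neuregulin receptor, was measured at 75.0, 73.2 and 74.9 CPM in control and at 81.5, 73.0 and 84.4 CPM in knockdown. The control libraries lay within the range of the knockdown libraries at its lower end. The log2 fold change was 0.10 (SE 0.0639, 95% interval -0.04 to 0.23, adjusted p = 0.286), and no alternative brought it past the threshold. Whether the receptors differed from each other in their change was not tested. Of the summed TPM of the 3 receptors, EGFR made up 70.4 ± 1.33% in control and 66.1 ± 2.17% in knockdown, and the sum itself was 186 ± 3.41 and 182 ± 6.61 TPM.

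TGFA (ENSG00000163235, chr2:70447280-70554193, minus strand), a ligand of EGFR alone, was measured at 124, 133 and 132 CPM in control and at 149, 153 and 147 CPM in knockdown. All knockdown libraries lay above all control libraries. The mean rose by 15.5% in the fit, from 129 ± 5.14 to 150 ± 3.53 CPM (log2 fold change 0.21, SE 0.0546, 95% interval 0.09 to 0.32, adjusted p = 0.00947). The call of TGFA was lost without control replicate 1 (adjusted p = 0.0666) and without knockdown replicate 1 (0.0508). Its log2 fold change ranged from 0.17 to 0.26 and its adjusted p from 2.98e-05 to 0.0666 over 12 alternatives.

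HBEGF (ENSG00000113070, chr5:140332843-140346631, minus strand), the heparin-binding ligand and an early response gene of ERK signalling, was measured at 6.54, 5.16 and 6.86 CPM in control and at 4.12, 4.20 and 5.34 CPM in knockdown. The groups overlapped, since control replicate 2 lay below knockdown replicate 3. The mean fell by 26.4% in the fit, from 6.19 ± 0.904 to 4.55 ± 0.682 CPM (log2 fold change -0.44, SE 0.152, 95% interval -0.76 to -0.12, adjusted p = 0.0412). This was the least firm of the calls. It was lost without control replicate 1 (adjusted p = 0.106), control replicate 3 (0.166), knockdown replicate 1 (0.144) or knockdown replicate 2 (0.0887), and with DESeq2 (0.0755). The log2 fold change ranged from -0.58 to -0.36 and the adjusted p from 0.0101 to 0.166 over 12 alternatives.

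AREG (ENSG00000109321, chr4:74445134-74455009, plus strand), amphiregulin, rested on few reads, with 23, 21 and 23 counts in control and 33, 45 and 38 counts in knockdown. This came to 0.895, 0.903 and 0.918 CPM in control and 1.17, 1.63 and 1.28 CPM in knockdown, and the groups did not overlap. The difference did not pass the test (log2 fold change 0.58, SE 0.269, 95% interval 0.02 to 1.15, adjusted p = 0.127). No alternative changed this, with adjusted p-values from 0.0923 to 0.344 over 12 alternatives. Its interval reached from near 0 to more than a doubling, so the depth limited what could be said of AREG.

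EREG (ENSG00000124882, chr4:74365143-74388751, plus strand), epiregulin, had 23, 30 and 18 counts in control and 23, 21 and 20 counts in knockdown. In CPM these were 0.895, 1.29 and 0.718 against 0.816, 0.761 and 0.672, and the groups overlapped. The log2 fold change was -0.36 (SE 0.316, 95% interval -1.03 to 0.30, adjusted p = 0.447), and without control replicate 2, the highest library, it was -0.11 (adjusted p = 0.871). No difference was detectable at this depth.

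The remaining ligands were at or near the limit of detection, taken as 3 counts, or 0.101 to 0.129 CPM by library. BTC (ENSG00000174808, chr4:74744759-74794686, minus strand), betacellulin, had 16, 2 and 8 counts in control and 12, 5 and 8 counts in knockdown, and with no filter on low counts its log2 fold change was -0.27 (adjusted p = 0.812). NRG1 (ENSG00000157168, chr8:31639386-32767959, plus strand), neuregulin 1, had 3 counts in control replicate 3, 1 count in knockdown replicate 1 and 0 in the other libraries. EPGN (ENSG00000182585, chr4:74308473-74315307, plus strand), epigen, had 0 counts in all 6 libraries, which allows up to 3 counts in each. Such intervals and limits cover counting error only.

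**Figure D2:**
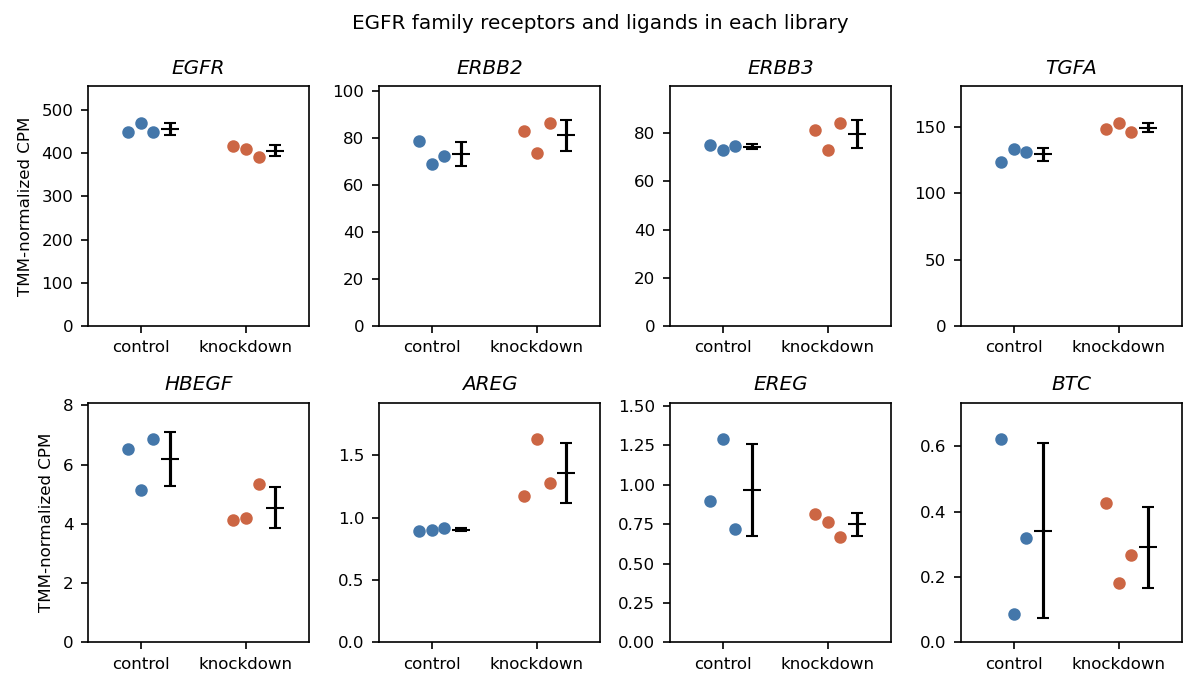
TMM-normalized CPM of the 7 tested genes and BTC in every library, with 1 panel per gene on its own linear axis from 0, 1 point per library, and the group mean with its SD in black. The control and knockdown points do not overlap for EGFR (lower in knockdown) and for TGFA and AREG (higher), and they overlap in the other panels.

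Of the 7 genes tested, 3 were called, a share of 42.9%, while 25.2% of all tested genes were called (13.3% higher and 11.9% lower). TGFA was the 1 gene called higher, and EGFR and HBEGF were the 2 called lower. The groups did not overlap in 3 of the 7, with TGFA and AREG higher and EGFR lower in knockdown, while over all tested genes the groups did not overlap in 38.8% (20.6% higher and 18.2% lower). The median log2 fold change of the 7 was 0.10 and that of all tested genes was 0.00393. Both shares rest on 7 genes.

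**Figure D3:**
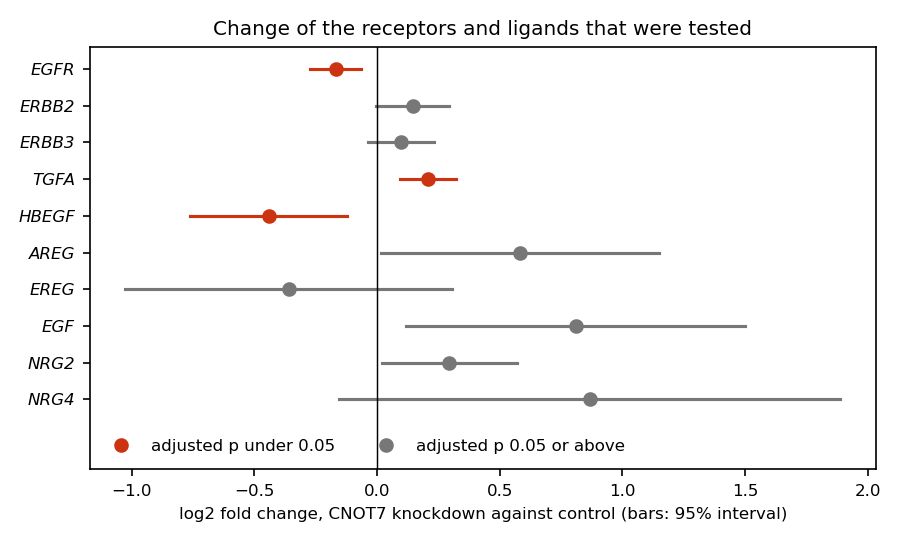
Log2 fold change of CNOT7 knockdown against control for the tested genes of the family and the further family genes, with bars for the 95% interval of the edgeR fit. The intervals of TGFA (0.09 to 0.32), EGFR (-0.27 to -0.06) and HBEGF (-0.76 to -0.12) belong to the genes past the threshold on the adjusted p, and those of AREG and EREG are the widest of the 7 genes.

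The makeup of the ligand pool was then described per length. TGFA made up 88.7, 91.2 and 89.3% of the summed TPM of the 7 ligands of EGFR (TGFA, HBEGF, AREG, EREG, BTC, EPGN and EGF) in control and 92.1, 91.8 and 91.1% in knockdown. These shares overlapped between the groups only narrowly, at control replicate 2 and knockdown replicate 3. HBEGF made up 7.06 ± 1.09% in control and 4.6 ± 0.748% in knockdown. The summed level was 102, 106 and 106 TPM in control and 121, 123 and 121 TPM in knockdown, with no overlap, and most of this sum was TGFA.

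Ratios within a library were also taken for 4 pairs of genes. The level of TGFA per level of EGFR was 0.695, 0.713 and 0.740 in control and 0.901, 0.946 and 0.942 in knockdown. TGFA over HBEGF was 13 ± 2.39 in control and 20.3 ± 3.12 in knockdown. AREG over EREG was 3.44 ± 1.0 and 6.33 ± 1.25. In these 3 ratios the groups did not overlap, and each gave p = 0.1 in an exact two-sided permutation test, the smallest p that 3 against 3 libraries allow (adjusted p = 0.133 over the 4 ratios). Each of these 3 pairs set a gene with a positive fitted log2 fold change over one with a negative change. TGFA and EGFR had each separated already, in opposite directions, so their ratio had to separate. AREG and EREG rested on 18 to 45 counts per library. These ratios therefore add no support to the results of the single genes. ERBB2 over ERBB3 was 0.862 ± 0.0510 and 0.890 ± 0.00654 (exact permutation test, p = 0.4, adjusted p = 0.4).

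The further genes of the family outside the 10 were EGF, ERBB4, NRG2, NRG3 and NRG4. Of these, 3 were tested and none was called, while 25.2% of all tested genes were called. EGF, the founding ligand of EGFR, was measured at 0.623, 0.473 and 0.638 CPM in control and at 1.21, 1.12 and 0.739 CPM in knockdown. The groups did not overlap, but the difference did not pass the test (log2 fold change 0.81, SE 0.327, 95% interval 0.12 to 1.5, adjusted p = 0.0805). Without knockdown replicate 3 EGF was called higher (log2 fold change 1.0, adjusted p = 0.0458). NRG2 was the most abundant neuregulin, at 10.9, 7.70 and 9.34 CPM in control and 10.9, 10.2 and 13.2 CPM in knockdown (log2 fold change 0.29, 95% interval 0.02 to 0.57, adjusted p = 0.112). NRG2 was called higher without control replicate 1 (adjusted p = 0.0334) and without knockdown replicate 2 (0.0491). NRG4, with 3 to 23 counts per library, had a log2 fold change of 0.87 (95% interval -0.15 to 1.89, adjusted p = 0.212). ERBB4 and NRG3 had 0 counts in all libraries.

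The genes that release, relay and restrain the signal of the receptors were taken from fixed lists. Of 86 genes in 6 pathway lists, the further family genes included, 81 were tested, 11 were called higher and 18 lower, a share of 35.8% beside 25.2% over all tested genes. The split by list is given with values for the genes that a fixed rule named.

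Among the 11 genes of ligand shedding, 9 were tested, 1 was called higher and 3 lower (44.4%, beside 25.2% of all tested genes). ADAM9, a metalloprotease that can release HBEGF, fell from 201 ± 9.76 to 156 ± 9.66 CPM (log2 fold change -0.36, adjusted p = 2.15e-04). ADAM15, a related protease, had a log2 fold change of -0.21 (adjusted p = 0.0339). RHBDF1 fell (-0.34, adjusted p = 0.00235) and RHBDF2 rose (0.19, adjusted p = 0.0244), both being inactive rhomboids that bring ADAM17 to the cell surface. The main sheddases of the ligands, ADAM10 and ADAM17, did not pass the test, with 95% intervals of -0.23 to 0.04 and -0.03 to 0.24 on the log2 scale, and were named outside the rule after their values were seen. ADAM15 lost its call without control replicate 1 or 3 or knockdown replicate 1 or 2 (adjusted p from 0.0644 to 0.144), and with the trend with abundance removed (0.144). RHBDF2 lost it without control replicate 2 or 3 or knockdown replicate 1 or 3 (adjusted p from 0.0843 to 0.0941), and with no filter on low counts (0.0697).

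Of 20 feedback inhibitors of receptor signalling, 4 were called higher and 2 lower (30%, beside 25.2% of all tested genes). CBLC, a ubiquitin ligase for activated EGFR, rose from 1.28 ± 0.414 to 2.58 ± 0.102 CPM (log2 fold change 1.02, adjusted p = 0.00389), and its relative CBLB rose by 0.55 on the log2 scale (adjusted p = 0.0133). DUSP6, the phosphatase of ERK, was measured at 426, 427 and 425 CPM in control and at 339, 351 and 345 CPM in knockdown (log2 fold change -0.31, adjusted p = 1.40e-04). PTPN1, a tyrosine phosphatase that acts on EGFR, fell by 0.30 on the log2 scale (adjusted p = 3.12e-04). LRIG1 and DUSP4 were the other genes called higher. Without control replicate 1 or 3 the call of CBLB was lost (adjusted p = 0.0620 and 0.0657).

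Of 19 adaptors and genes of the RAS-ERK cascade, 1 was called higher and 3 lower (21.1%, beside 25.2% of all tested genes). GAB1, the docking adaptor of ErbB receptors, rose from 6.30 to 7.74 CPM in the control libraries to 9.68 to 10.3 CPM in the knockdown libraries (log2 fold change 0.56, adjusted p = 0.00184). HRAS fell from 39.6 ± 2.82 to 29.6 ± 1.45 CPM (-0.42, adjusted p = 5.72e-04), and the kinase ARAF fell slightly (-0.21, adjusted p = 0.0147). ARAF lost its call without control replicate 1 (adjusted p = 0.0802). Of the PI3K-AKT branch, 11 of 12 genes were tested, none was called higher and 2 were lower (18.2%, beside 25.2% of all tested genes). They were the regulatory subunit PIK3R1 (-0.28, adjusted p = 0.00918) and PDPK1, the kinase that activates AKT (-0.34, adjusted p = 0.00160).

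The list of genes transcribed in response to ERK held the largest share of calls, with 5 of 19 higher and 8 lower (68.4%, beside 25.2% of all tested genes), and a median log2 fold change of 0.04. Whether the abundance of these genes had a part in this share was not tested. FOS rose from 86.8 ± 5.13 to 116 ± 5.15 CPM (log2 fold change 0.42, adjusted p = 7.43e-05). MYC rose from 249 ± 5.56 to 325 ± 10.5 CPM (0.39, adjusted p = 2.52e-05), and EGR2 rose from 0.844 ± 0.215 to 1.85 ± 0.225 CPM (1.12, adjusted p = 0.00479). EPHA2, an ephrin receptor induced by ERK, fell from 199 ± 9.29 to 148 ± 8.54 CPM (-0.43, adjusted p = 3.65e-05). The immediate early transcription factors thus did not move together, since EGR3, FOSL1 and JUN were called lower.

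**Figure D4:**
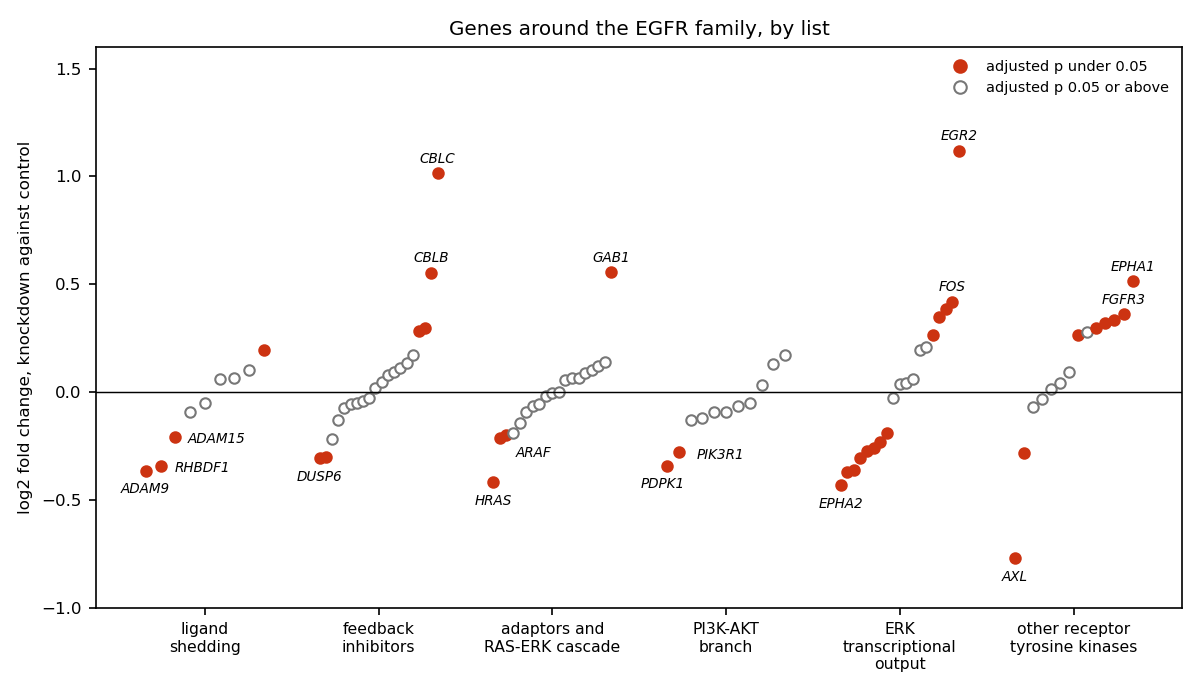
Log2 fold change of each tested gene, in order of value within 5 pathway lists and the other receptor tyrosine kinases, with filled points for genes past the threshold on the adjusted p and open points for the others. The ERK output list holds 5 genes called higher and 8 called lower of 19, and the PI3K-AKT branch holds 2 called lower and none higher of 11. Over all tested genes 25.2% were called.

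EGFR was set beside 14 other receptor tyrosine kinases, of which 6 were called higher and 2 lower (57.1%, beside 25.2% of all tested genes), with a median log2 fold change of 0.18. These counts leave out EPHA2 and EPHA4, also receptor tyrosine kinases, which were placed in the ERK output list. Both were called lower (log2 fold change -0.43 and -0.27), so the balance of directions depends on how the lists were split. AXL fell most, from 194 ± 5.59 to 114 ± 8.88 CPM (log2 fold change -0.77, adjusted p = 8.17e-08). EPHA1 (0.51, adjusted p = 6.87e-04), FGFR3 (0.36, adjusted p = 0.0159) and MET, the HGF receptor (0.34, adjusted p = 0.00250), rose. FGFR3 lost its call without knockdown replicate 1 (adjusted p = 0.0893) or 3 (0.0582).

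EREG, AREG, EPGN and BTC lie next to each other on chromosome 4, and the window from 500 kb before to 500 kb after them held 30 genes, of which 9 were tested, 2 were called higher and 3 lower, beside 25.2% called of all tested genes. The ligand genes AREG and EREG were not called, and the called genes of the window went in both directions. The called genes nearest to AREG on either side were CXCL2, placed 348 kb before its start, and PARM1. PARM1, which starts 488 kb after AREG and encodes a membrane mucin, rose from 2.33 to 7.33 CPM on average (log2 fold change 1.65, SE 0.156, adjusted p = 6.80e-07). On the other side lie chemokine genes, of which CXCL6 was higher (0.76, adjusted p = 0.0164) and CXCL1 (-0.41, adjusted p = 7.15e-04), CXCL3 (-0.42, adjusted p = 0.0234) and CXCL2 (-0.37, adjusted p = 0.0330) were lower. MTHFD2L, the nearest tested gene upstream of EREG, had a log2 fold change of 0.09 (adjusted p = 0.553), and LINC02562 had -0.08 (adjusted p = 0.910). CXCL6 lost its call without control replicate 3 (adjusted p = 0.0879) or knockdown replicate 1 (0.0636). CXCL3 lost it without control replicate 1 or 2 or knockdown replicate 1 or 3 (0.0541 to 0.0753), and CXCL2 without control replicate 2 or 3 or knockdown replicate 1 or 3 (0.0566 to 0.151). With DESeq2 CXCL6, CXCL3 and CXCL2 also lost their calls (adjusted p = 0.0581, 0.0585 and 0.0769).

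**Figure D5:**
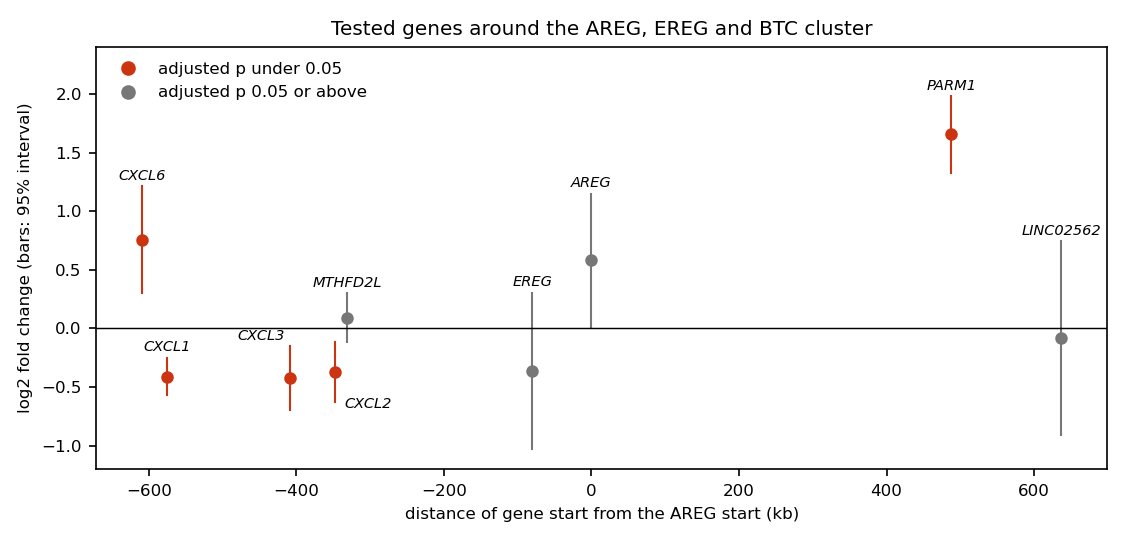
Log2 fold change with its 95% interval for the 9 tested genes around the chromosome 4 ligand cluster, placed by distance in kb from the start of AREG. PARM1, 488 kb after AREG, has the highest value (1.65), and the intervals of MTHFD2L, EREG and LINC02562 include 0.

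Across the 6 libraries the profile of HBEGF, the called gene of the family with the largest change, was most like those of AC103702.2 (Pearson's r = 0.996 of log2 CPM), RHOG (0.993) and AL450306.1 (0.992). None of these genes was itself called between the groups (adjusted p = 0.113, 0.354 and 0.183, edgeR). In all, 120 tested genes had r above 0.95 with HBEGF. These 6 points share the split into control and knockdown and the library depths.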

How the data were processed

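Total RNA of 6 SW480 libraries, 3 control and 3 CNOT7 knockdown, was sequenced after preparation with a NEBNext Ultra kit. The authors deposited raw counts per gene with gene lengths and positions, without normalization. The submitters' processing notes name CASAVA 1.8, fastp, HISAT2 2.0.5, featureCounts 1.5.0-p3, DESeq2 1.20.0 and the build GRCh38. Whether counting used strand is not given in the sources used here. All 58735 gene identifiers were found in GENCODE release 29. The number of columns of other samples left unused was 0.

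The test of the groups was edgeR's quasi-likelihood test (version 4.0.16, under R 4.3.3; glmQLFit and glmQLFTest) with TMM factors, on the 17574 genes that filterByExpr kept, with Benjamini-Hochberg adjustment over all of them and a threshold of 0.05 on the adjusted p. CPM is TMM-scaled, and TPM used the deposited lengths of exonic bases. The script was tested on simulated data. Standard errors were derived from the F statistic (the size of the log2 fold change over the root of F). Figures were drawn in Python 3.11.15.

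The genes of the family and the lists were chosen with earlier results of these data known. The genes named were CNOT7, the 10 family genes, the further family genes, of each list all called genes if there were 5 or fewer and otherwise the 4 largest changes without overlap between groups, the tested neighbours on chromosome 4, and the 3 genes most like the called family gene with the largest change. The values of 1 gene that this rule named are not reported here.

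Alternatives were DESeq2 1.42.0, RLE factors, no filter, at least 10 counts in every library, the replicate number as a block, removal of a trend with abundance, and leaving out each library. Replicates of a group differed by more than sampling noise, so none was counted as a copy.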

Additional observations from a re-analysis of the deposited data

How the results depend on the processing

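Of 43 named genes, 27 kept their direction and their side of the threshold under all alternatives that gave a value (12, or 11 for NRG4), 12 lost the call in at least 1, 3 gained it in at least 1, and LINC02562 reversed, at 0.21 without control replicate 2 (-0.36 to 0.21 over the libraries left out). Same-numbered libraries were not treated as pairs in the main test, since shared numbers are not stated to mark a shared culture or day. The correlations of their deviations from the group means were 0.0459, 0.241 and -0.00768. Those of control and knockdown libraries with different numbers ranged from -0.235 to 0.202. With 3 libraries per group these values cannot exclude a pairing. With the replicate number as a block, 2 family genes were called higher (TGFA and ERBB2), as were 18 pathway genes, and 3306 genes were called lower. NRG2 was called higher with the block too (adjusted p = 0.0247). With DESeq2 the number of family genes called lower was 1, and with the trend with abundance removed it was 1. Leaving out 1 library gave 0 to 2 family genes called higher, 0 to 1 called lower, and 1367 to 2219 genes called lower over the whole table. The cause was not tested. With the length of the longest coding transcript, chosen after seeing the data, the shares of the summed receptor level in control were 62.5% for EGFR, 20.6% for ERBB2 and 16.9% for ERBB3, and in knockdown 57.7% for EGFR and 23.5% for ERBB2. With the same length TGFA made up 91.4% of the summed ligand level in knockdown. This sum held NRG1 and not EGF, unlike the ligand pool described above, so the 2 shares of TGFA differ in more than the length. Depth limited AREG, EREG, BTC, EGF and NRG4, which had at most 45 counts in a library. EGR2 and CBLC also rested on few reads, with 14 to 58 and 23 to 76 counts per library.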
